A study of Mus musculus with 4 samples.

Results

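The circadian clock genes described here are 9 genes with Rora at their head, chosen by symbol among 17924 genes listed for mouse testis. They comprise 3 activators (Rora, Arntl and Clock), 5 repressors (Per1, Per2, Cry1, Cry2 and Nr1d1) and 1 output gene (Dbp). All 9 were listed and all 9 passed the filter of a level of 1 or more CPM (reads scaled to a total of 1000000 per library) in 2 or more of the 4 libraries. Testis RNA was sequenced from 2 samples of Tas1r3 KO males, which lack the subunit shared by the sweet and umami taste receptors, and from 2 samples of WT males. Both genotypes were C57BL/6 mice that had been fed a normal diet (18 weeks). The labels used here give no hour of sampling, no age beyond the diet, and no word on whether the 2 samples of each genotype are separate animals. The p-values therefore measure only the spread between these samples, which may be technical, and the hour of collection and genotype cannot be told apart.

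The molecular clock is a loop of transcription factors that runs in most cells. BMAL1 (the product of Arntl) and CLOCK bind E-box elements and switch on the Per, Cry and Nr1d1 genes. PER and CRY proteins then block that pair, while REV-ERB alpha (Nr1d1) and ROR alpha (Rora) compete for a shared DNA element at which REV-ERB represses and ROR activates, Arntl being the best known target. Dbp, a leucine zipper factor switched on through E-boxes, passes the rhythm to other genes. In rodent testis the loop has been reported to cycle weakly or not at all over the day, with Per1 made in developing germ cells. This background is not a result of these libraries.

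Several of the 9 genes are transcribed from more than one start, and the deposited table gives each RefSeq transcript its own value. The transcripts from the downstream Per1 and Clock starts were assigned higher levels in both KO samples than in either WT sample. Clock's transcript shares were the same in both KO samples, so its levels are not shown to measure the use of each start. Shown here are the windows at the downstream Per1 and Clock starts and at the upstream Per1 and Rora starts. Each runs from 250 bases before to 50 after the start site, 5′ to 3′, from RefSeq on GRCm38.p6, which is an older build than the mm39 of the deposited positions. Capitals mark an E-box (CACGTG, which reads the same on both strands) or a ROR half-site (AGGTCA on either strand, read as TGACCT on the strand shown).
Per1 upstream start (NM_011065), chr11:69098699-69098998, plus strand: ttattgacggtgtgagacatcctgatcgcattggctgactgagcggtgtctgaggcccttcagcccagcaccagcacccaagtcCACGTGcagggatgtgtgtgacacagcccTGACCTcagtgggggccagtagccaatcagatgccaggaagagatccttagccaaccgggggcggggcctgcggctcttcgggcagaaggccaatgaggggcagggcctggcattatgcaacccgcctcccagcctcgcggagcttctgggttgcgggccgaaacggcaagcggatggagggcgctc
Per1 downstream start (NM_001159367), chr11:69099902-69100201, plus strand: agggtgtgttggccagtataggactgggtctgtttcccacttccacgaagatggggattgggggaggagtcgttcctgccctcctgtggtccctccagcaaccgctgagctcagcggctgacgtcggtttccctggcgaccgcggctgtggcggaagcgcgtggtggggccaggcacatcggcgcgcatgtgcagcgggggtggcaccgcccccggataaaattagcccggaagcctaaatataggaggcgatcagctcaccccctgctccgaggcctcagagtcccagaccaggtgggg
Clock downstream start (NM_001305222), chr5:76303453-76303752, minus strand: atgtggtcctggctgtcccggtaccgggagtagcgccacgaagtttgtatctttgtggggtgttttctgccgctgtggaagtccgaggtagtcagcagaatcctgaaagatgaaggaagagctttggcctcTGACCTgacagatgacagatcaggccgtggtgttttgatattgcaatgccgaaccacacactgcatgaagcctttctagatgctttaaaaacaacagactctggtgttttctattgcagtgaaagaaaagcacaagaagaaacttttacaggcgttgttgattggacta
Rora upstream start (NM_013646), chr9:68653536-68653835, plus strand: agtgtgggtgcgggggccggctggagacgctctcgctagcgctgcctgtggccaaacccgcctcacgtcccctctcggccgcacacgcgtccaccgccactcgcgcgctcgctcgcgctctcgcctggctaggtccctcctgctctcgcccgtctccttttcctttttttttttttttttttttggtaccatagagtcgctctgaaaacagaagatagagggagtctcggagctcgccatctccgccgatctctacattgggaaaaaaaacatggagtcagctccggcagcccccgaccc

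The upstream Per1 window held an E-box that began 166 bases before the start site and a ROR half-site that began 137 bases before it. The downstream Per1 window and the upstream Rora window held none of the motifs searched, and the downstream Clock window held a ROR half-site from 119 bases before its start. Windows were found for 8 of 9 members (12 windows), not for Per2, and for Rora at the upstream start only. An E-box was present in 2 of the 12, at Per1 and Cry1, and in 7.15% of all 32851 windows. A ROR half-site was present in 3 of the 12, at Arntl, Clock and Per1, and in 16.3% of all windows. The match at Arntl began 31 bases after a start site that fitted no listed transcript. The window of the listed Arntl transcript (NM_001243048), which overlaps that one, held no exact AGGTCA. Near matches, such as the AGGTTA close to the end of that window, were not searched for. The cAMP response element (TGACGTCA) and the D-box (TTATGTAA or TTACGTAA, the sequence DBP binds), both searched on both strands, were present in 0 of the 12 and in 1.79% and 1.06% of all windows. A match is a stretch of letters and not a measured binding site. The half-site search took AGGTCA alone, without the bases beside it, so a match is not shown to be a ROR site. The motifs did not overlap in these windows.

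The libraries differed in depth along with genotype. Estimated from the smallest repeated values, depth was 748637 and 597936 reads in KO samples 1 and 2, against 1719356 and 1807694 in WT samples 1 and 2. The targeted gene Tas1r3 stood at 1.34 and 0 CPM in the KO samples and at 13.8 and 20.5 CPM in the WT samples. Markers of spermatocytes, spermatids, Leydig cells and Sertoli cells were listed in every library. Over 17744 genes tested with limma on log2(CPM + 1), 0 passed a Benjamini-Hochberg adjusted p of 0.05 as higher and 1 as lower (0.00564% of genes). At an unadjusted p under 0.05 there were 833 genes (4.69%). Tas1r3 itself did not pass (log2 fold change -3.54, SE 0.60, limma adjusted p = 0.942), so it is not the gene called lower. A gene that did not pass is thus not shown to be unchanged.

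Rora was lower in both KO samples, at a KO mean 0.502 times the WT mean, but neither it nor any of the other 8 members passed the adjusted threshold. Arntl was the 1 other member whose genotypes did not overlap, and it was higher in both KO samples. The 5 repressors and Dbp overlapped between genotypes. Of the 9 members, 0 passed the adjusted threshold as higher, beside 0.0% of all genes, and 0 as lower, beside 0.00564%. With the replicate number as a block, 0 members passed, beside 0.13% of all genes. At an unadjusted p under 0.05 there was 1 member (Rora), beside 4.69% of all genes. Genotypes did not overlap in 2 of 9 members (22.2%), beside 34.4% of all genes, so such a count is no result about the clock genes. The median log2 fold change was -0.04 over the members and -0.05 over all genes tested.

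**Figure D1:**
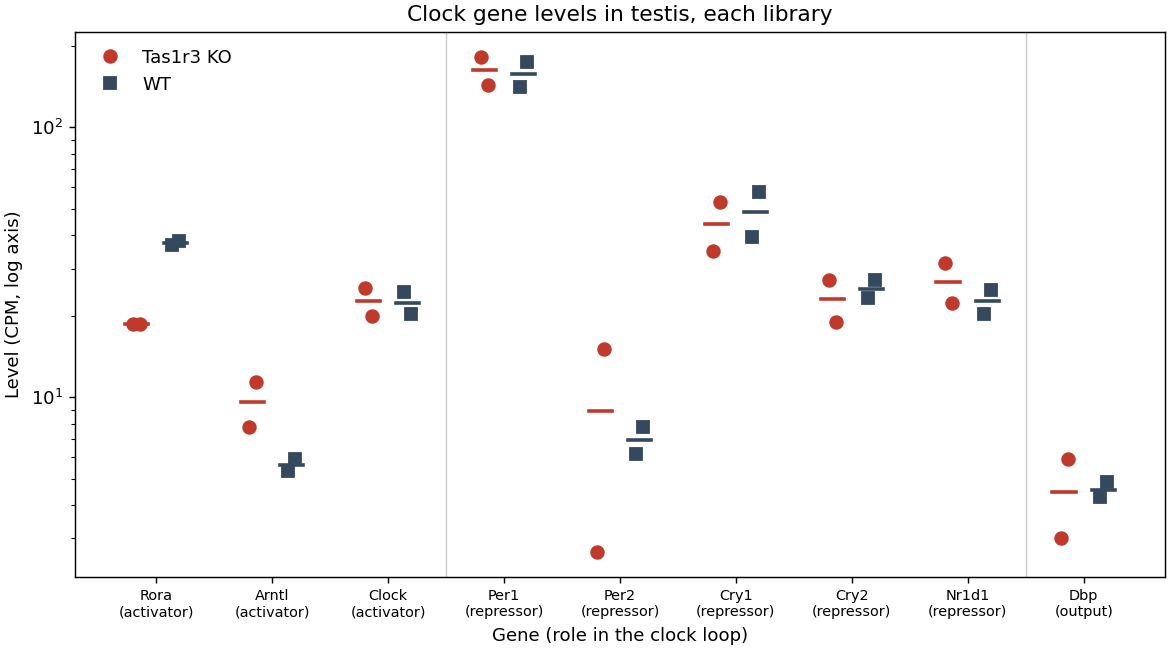
Level of each clock gene in CPM on a log axis, with KO libraries (red circles) left of WT libraries (dark squares) and a bar at each genotype mean (n = 2 each). Both Rora values are near 18.7 CPM in KO and above 36 CPM in WT, Arntl is higher in both KO libraries, and the other genes overlap.

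Rora, the nuclear receptor that switches on Arntl, occupies chromosome 9 (mm39) from 68561069 to 69295529, plus strand. It stood at 18.7 and 18.7 CPM in KO samples 1 and 2, against 36.7 and 37.9 CPM in WT samples 1 and 2. The libraries of each genotype lay close together, and there was no overlap. These levels rest on about 14.0 and 11.2 reads in the KO samples and 63.1 and 68.6 reads in the WT samples. Counting error at such depth is far wider than the SD of 0.0066 CPM between the KO samples, so that SD does not show precision. Mean levels were 18.7 ± 0.0066 CPM in KO and 37.3 ± 0.89 CPM in WT (SD, n = 2 each). The depth-scaled ratio of reads was 0.496 (exact 95% interval 0.310 to 0.765, counting error only). The span of Rora shares 15359 bases with Gm15511 on the opposite strand. That gene stood at 4.01 and 8.19 CPM in KO and at 6.17 and 3.68 CPM in WT. Reads of this stretch cannot be told apart unless they were counted by strand, which no source used here states.

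The log2 fold change of Rora was -0.96 (SE 0.24, 95% interval -1.51 to -0.40), which is a KO level 0.515 times that of WT on the log2(CPM + 1) scale. This SE comes mostly from limma's variance prior over all genes and is wider than the spread of Rora's own values. Its unadjusted limma p of 0.0041 became an adjusted p of 0.942 over all genes. Over the 13 alternative settings the log2 fold change lay between -0.99 and -0.84 and the adjusted p between 0.0075 and 1.00. Rora passed in 2 of them, with a limma adjusted p of 0.0075 when KO sample 1 was left out and 0.0136 when KO sample 2 was. In those fits the spread came from the WT samples alone, the lone KO sample being assumed to vary like them, and 5.89% and 2.91% of all genes were called lower. The call thus depends on leaving out a KO library, while the size of the difference changed little under these settings.

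**Figure D2:**
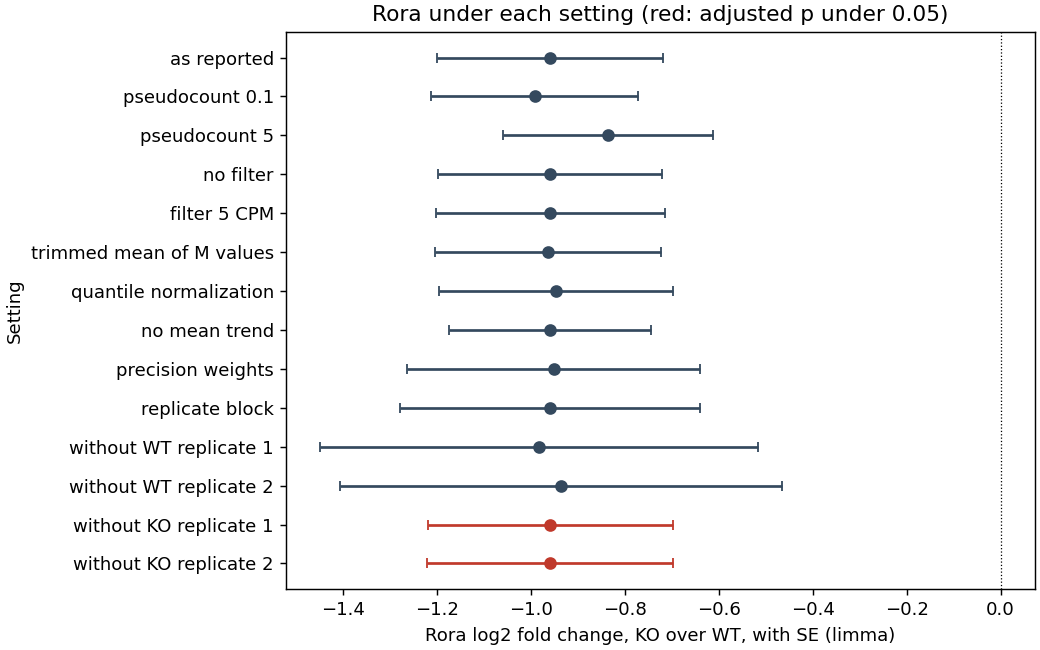
Log2 fold change of Rora, KO over WT, with SE, for the fit as reported and 13 alternative settings. All values lie between -0.99 and -0.84, and the adjusted p is under 0.05 (red) only without KO sample 1 and without KO sample 2.

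Depth moved with Rora, KO libraries being shallower, and its part in the difference was not tested. Marker sums of several cell types differed between genotypes too, in both directions. These sums were not tested, and no tested marker passed the adjusted threshold. Over all genes tested, genotypes did not overlap in 34.4%, and 9825 of 17744 genes were lower in KO. The 6 peritubular myoid and smooth muscle markers summed to 297 and 375 CPM in KO, against 377 and 406 CPM in WT, and 6 of 6 were lower in KO. The 6 Leydig cell markers summed to 1565 and 1640 CPM in KO, against 1737 and 1813 CPM in WT, but 4 of 6 were higher in KO, with a median log2 fold change of 0.38. The 5 red blood cell markers summed to 35.8 and 53.9 CPM in KO, against 47.8 and 186 CPM in WT, with overlap of the sums, 5 of 5 lower and Hbb-bt below the value of 1 read in both KO libraries. The 3 listed epididymis markers (of 6) summed to 36.1 and 33.4 CPM in KO, against 77.9 and 43.7 CPM in WT. Only 2 of them were tested, 1 higher and 1 lower in KO, with a median log2 fold change of 0.40. Crisp1 and Rnase10 were absent or nearly so in some libraries. Sums for spermatocytes, spermatogonia and round spermatids were higher in both KO libraries. The 6 spermatocyte markers summed to 948 and 760 CPM in KO, against 727 and 745 CPM in WT, with 5 of 6 higher. Spermatogonia markers summed to 131 and 133 CPM in KO, against 121 and 104 CPM in WT, and round spermatid markers to 1348 and 1463 CPM in KO, against 1321 and 1288 CPM in WT, each with 4 of 6 higher. The spermatogonia markers went both ways, with log2 fold changes from -3.37 to 0.64. Without overlap, 2 of these 6 were below WT and 2 above. Sums for elongating spermatids, Sertoli cells, macrophages and endothelial cells overlapped between genotypes. The part of cell makeup in the Rora difference was not tested, and in bulk tissue fewer cells of a type and less RNA per cell cannot be told apart.

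A pair of RefSeq transcripts made up the Rora level. The one from the upstream start (NM_013646, starting at 68561069) stood at 9.17 and 9.17 CPM in KO, against 14.7 and 18.6 CPM in WT. The one from the downstream start (NM_001289916, starting at 69197124) stood at 9.54 and 9.55 CPM in KO, against 22.0 and 19.4 CPM in WT. Both were lower in each KO sample than in either WT sample. Fitted on their own among 27539 transcripts, they had log2 fold changes of -0.79 (SE 0.41, limma adjusted p = 0.840) and -1.04 (SE 0.38, limma adjusted p = 0.632). The downstream transcript took 51.0% of the gene's level in KO sample 1, KO sample 2 and WT sample 2 alike, and 59.8% in WT sample 1. In those 3 of 4 libraries each transcript is a fixed part of the gene level. That both transcripts were lower thus largely repeats the gene's difference and is no separate result. Whether such shares measure the use of each start was not tested.

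Arntl encodes BMAL1 and lies on chromosome 7 from 112806673 to 112913334 on the plus strand. It stood at 7.79 and 11.4 CPM in KO, against 5.34 and 5.94 CPM in WT, about 5.8 and 6.8 reads against 9.2 and 10.7 reads. Both KO samples were above both WT samples. Its log2 fold change of 0.65 (SE 0.44, 95% interval -0.36 to 1.67) did not pass (limma adjusted p = 0.942). The depth-scaled ratio of reads was 1.70 with an exact 95% interval of 0.778 to 3.60, so no difference was detectable at this depth. The difference between the changes of Rora and Arntl was not tested.

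Clock, the partner of BMAL1 and a histone acetyltransferase, lies on chromosome 5 from 76357716 to 76452640 on the minus strand. Its summed level was 25.4 and 20.1 CPM in KO and 24.6 and 20.3 CPM in WT. The genotypes overlapped, with a log2 fold change of 0.01 (SE 0.28, 95% interval -0.63 to 0.66, limma adjusted p = 0.997). Within that sum the transcript from the most downstream start (NM_001305222) stood at 13.5 and 10.7 CPM in KO, against 3.69 and 3.19 CPM in WT. It took 53.1% of the gene's level in both KO samples, against 15.0% and 15.7% in WT samples 1 and 2. Both KO samples were above both WT samples for this transcript, yet it did not pass (log2 fold change 1.55, SE 0.55, limma adjusted p = 0.618 over 27539 transcripts). The other Clock transcripts were lower in both KO samples. NM_001289826 stood at 6.59 and 5.21 CPM in KO, against 8.66 and 9.48 CPM in WT, and NM_007715 at 5.31 and 4.20 CPM in KO, against 12.2 and 7.64 CPM in WT. Neither passed (limma adjusted p of 0.939 and 0.894).

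The KO libraries also gave the 3 Clock transcripts one set of shares, 26.0%, 53.1% and 20.9% in KO sample 1 and the same in KO sample 2, on about 19 and 12 reads for the whole gene. Across genes with at least 5 CPM in every library and no transcript over 99% of the level, the largest difference in share between the 2 libraries was at most 0.1 percentage points for 783 of 4406 genes in KO (17.8%). The same held for 354 of 4711 genes in WT (7.51%). The part of this in the Clock difference was not tested.

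**Figure D3:**
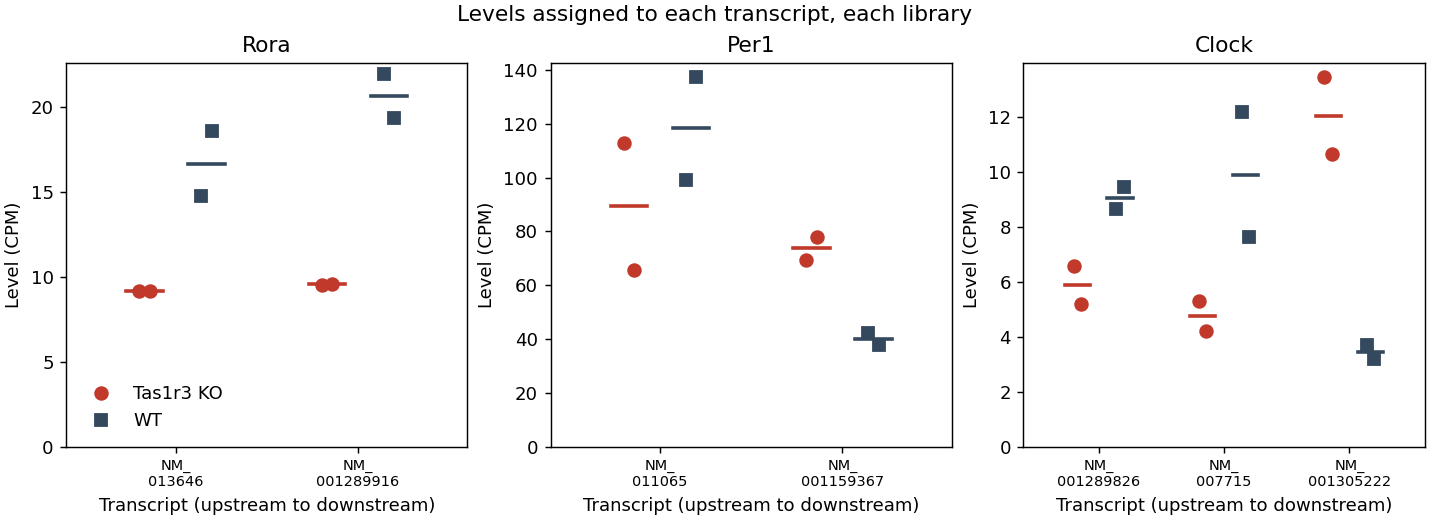
Levels in CPM assigned to each transcript of Rora, Per1 and Clock, ordered from upstream to downstream start, with KO libraries (red circles) left of WT libraries (dark squares) and bars at the means (n = 2 each). Both Rora transcripts are lower in KO, while the downstream transcripts of Per1 and Clock are higher in KO and their other transcripts are not. Shares were the same in both KO libraries for Rora and for Clock, so their levels are not shown to measure the use of each start.

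Per1, the period gene that is induced most quickly by signals to the clock, was the most abundant member per length. It lies on chromosome 11 from 68989776 to 69000784 on the plus strand. Its level was 182 and 144 CPM in KO and 141 and 175 CPM in WT, from 85.9 to 317 reads a library. The genotypes overlapped, with a log2 fold change of 0.04 (SE 0.18, limma adjusted p = 0.988). The 95% interval of the KO over WT ratio was 0.772 to 1.37, the narrowest of the 9 members.

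Neither of the 2 Per1 transcripts passed on its own. The transcript from the downstream start (NM_001159367), whose start lies 1203 bases inside that of the other, stood at 69.4 and 77.9 CPM in KO, against 42.1 and 37.6 CPM in WT. Both KO samples were above both WT samples, on about 52.0 and 46.6 reads in KO and 72.4 and 68.0 reads in WT. The transcript from the upstream start (NM_011065), the one whose window holds the E-box, stood at 113 and 65.8 CPM in KO, against 99.2 and 138 CPM in WT, with overlap. The downstream transcript took 38.1% and 54.2% of the Per1 level in KO, against 29.8% and 21.5% in WT. A log2 fold change of 0.87 (SE 0.21) did not pass over 27539 transcripts (limma adjusted p = 0.508). Of all transcripts, 7.56% had an unadjusted p under 0.05 and 0.0% passed. The upstream transcript gave -0.43 (SE 0.33, limma adjusted p = 0.923), and -0.049 without KO sample 2. Unlike Rora and Clock, Per1 had shares that differed between the 2 KO libraries.

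Per2, the second period gene, was the least abundant member per length. It stood at 2.68 and 15.1 CPM in KO, against 6.18 and 7.74 CPM in WT. KO sample 1 was the lowest and KO sample 2 the highest of the 4 libraries, and KO sample 1 held about 2.0 reads, below the floor of 3 reads (4.01 CPM there). It gave a log2 fold change of -0.04 (SE 0.69, limma adjusted p = 0.996), and the interval of the ratio ran from 0.321 to 2.93. The KO mean of 8.87 CPM was above the WT mean of 6.96 CPM, so the sign differs between the log scale and the means. The log2 fold change was 1.02 without KO sample 1 and 0.098 without WT sample 2, and it also turned positive with a pseudocount of 5 and after quantile normalization. No direction can be given for Per2.

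Cry1 and Cry2 encode the cryptochromes, the stronger of the loop's repressors of CLOCK and BMAL1. Cry1 stood at 34.7 and 52.9 CPM in KO and at 39.1 and 57.7 CPM in WT. Cry2 stood at 27.3 and 19.0 CPM in KO and at 23.3 and 27.1 CPM in WT. Each overlapped between genotypes, with log2 fold changes of -0.15 (SE 0.28) and -0.13 (SE 0.29), both with a limma adjusted p of 0.966 or above. The 95% intervals of the KO over WT ratio were 0.576 to 1.42 for Cry1 and 0.577 to 1.44 for Cry2. Both overlapped that of Rora (0.350 to 0.756), and the difference of either gene from Rora was not tested.

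Nr1d1, which opposes Rora at the shared DNA element, stood at 31.4 and 22.3 CPM in KO and at 20.3 and 25.1 CPM in WT. The genotypes overlapped, with a log2 fold change of 0.22 (SE 0.28, limma adjusted p = 0.950). Without KO sample 1 it was -0.018. Nr1d1 shares 1075 bases with a transcript of the thyroid hormone receptor gene Thra on the opposite strand, which stood at 4.17 and 4.70 CPM in KO and at 9.66 and 10.5 CPM in WT. No source used here says whether reads were counted by strand, so reads of this stretch cannot be told apart.

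Dbp, the output gene, stood at 3.01 and 5.90 CPM in KO and at 4.27 and 4.84 CPM in WT. KO sample 1 was the lowest and KO sample 2 the highest, on about 2.3 and 3.5 reads in KO and 7.3 and 8.8 reads in WT. It gave a log2 fold change of -0.08 (SE 0.53, limma adjusted p = 0.993), and the interval of the ratio was 0.403 to 2.23, so no difference was detectable at this depth. Dbp shares 741 bases of its span with Sphk2 on the opposite strand, a gene at 44.9 and 37.0 CPM in KO and 48.6 and 46.2 CPM in WT.

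Per length of transcript the order of levels was the same for the 4 most abundant members in both genotypes. Per1 led with 35.0 ± 5.86 CPM per kb in KO and 33.9 ± 5.13 CPM per kb in WT (SD, n = 2 each). Cry1 followed with 14.5 ± 4.26 in KO and 16.05 ± 4.34 in WT, then Nr1d1 with 9.70 ± 2.32 and 8.21 ± 1.21, then Cry2 with 5.79 ± 1.46 and 6.30 ± 0.67 CPM per kb. Neighbours in this stretch did not overlap within a genotype. Below them Rora was in the eighth place in KO, at 1.72 ± 0.00060 CPM per kb, and in the fifth in WT, at 3.43 ± 0.082 CPM per kb. In KO, Arntl, Dbp and Clock stood between Cry2 and Rora, with overlap between Arntl and Dbp and between Dbp and Clock. In WT, Dbp, Clock and Arntl stood below Rora, with overlap between Clock and Arntl. Per2 was last in both, at 0.459 and 2.58 CPM per kb in KO, where it overlapped Rora, and 1.06 and 1.33 CPM per kb in WT.

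Summed by role, the activators stood at 51.9 and 50.2 CPM in KO, against 66.6 and 64.2 CPM in WT, a ratio of 0.780 with no overlap. Without Rora the other activators summed to 33.2 and 31.5 CPM in KO, against 29.9 and 26.2 CPM in WT, so the lower sum in KO was that of Rora. The 5 repressors summed to 278 and 253 CPM in KO and 230.3 and 293 CPM in WT, a ratio of 1.02 with overlap. The ratio of activator to repressor level per kb was 0.106 and 0.128 in KO and 0.138 and 0.106 in WT, and the genotypes overlapped. Without Rora that ratio was 0.0809 and 0.101 in KO and 0.0793 and 0.0590 in WT. No test was run on these sums.

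None of the further clock genes passed either. Of 42 further loop genes, kinases, ubiquitin ligase parts, cofactors and outputs, 40 were listed and tested. By limma 17 were higher in KO, 23 were lower and 0 passed, beside 0.00564% of all genes. The median log2 fold change was -0.05, as over all genes. At an unadjusted p under 0.05 there was 1 gene, or 2.5% beside 4.69% of all genes, and genotypes did not overlap in 10 of 40, beside 34.4% of all genes. That gene was Fbxl21, a ubiquitin ligase part that acts on cryptochromes, which was named after its values were seen. It stood at 6.53 and 7.04 CPM in KO, against 1.67 and 2.86 CPM in WT, on about 2.9 to 5.2 reads a library.

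Of the paralogs of the members, 3 are given with their levels. Per3, the third period gene, stood at 10.4 and 10.03 CPM in KO and at 11.1 and 10.2 CPM in WT. Nr1d2, which encodes REV-ERB beta, stood at 16.03 and 13.4 CPM in KO and at 14.4 and 14.4 CPM in WT. Npas2, which can replace CLOCK, stood at 4.89 and 3.36 CPM in KO and at 5.22 and 5.38 CPM in WT, without overlap. The log2 fold changes of these paralogs lay within their SE of 0.

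On the lower side, Prkaa1, a catalytic subunit of the energy-sensing kinase AMPK that marks cryptochromes for breakdown, stood at 21.4 and 24.8 CPM in KO, against 37.3 and 31.1 CPM in WT. Csnk1d, the casein kinase that phosphorylates PER proteins, stood at 211 and 179 CPM in KO, against 223 and 251 CPM in WT. Neither genotype overlapped the other in these 2 genes, with log2 fold changes of -0.55 (SE 0.25) and -0.28 (SE 0.15), each with a limma adjusted p of 0.942. Csnk1e, its near relative, stood at 3.14 and 4.91 CPM in KO, against 9.20 and 5.64 CPM in WT, and its 2.4 and 2.9 reads in the KO samples were under the floor of 3 reads. Sirt1, a deacetylase that acts on BMAL1 and PER2, stood at 18.7 and 16.7 CPM in KO, against 22.6 and 22.2 CPM in WT. Ncoa2, a nuclear receptor coactivator, stood at 103 and 54.6 CPM in KO and at 98.2 and 114 CPM in WT, with overlap.

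On the higher side, Id2, an inhibitor of E-box factors, stood at 9.35 and 8.36 CPM in KO, against 6.40 and 3.50 CPM in WT. The corepressor partners of REV-ERB came next. Ncor1 stood at 122 and 105 CPM in KO, against 88.7 and 104 CPM in WT, and Hdac3 at 62.8 and 55.1 CPM in KO and 56.1 and 49.1 CPM in WT. Bhlhe41, which represses through E-boxes, stood at 4.38 and 10.03 CPM in KO and at 2.94 and 6.90 CPM in WT. Wdr5, a chromatin protein bound to PER complexes, stood at 53.4 and 40.2 CPM in KO and at 47.1 and 36.1 CPM in WT. Id2 and Ncor1 did not overlap between genotypes, and none of the 5 passed.

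**Figure D4:**
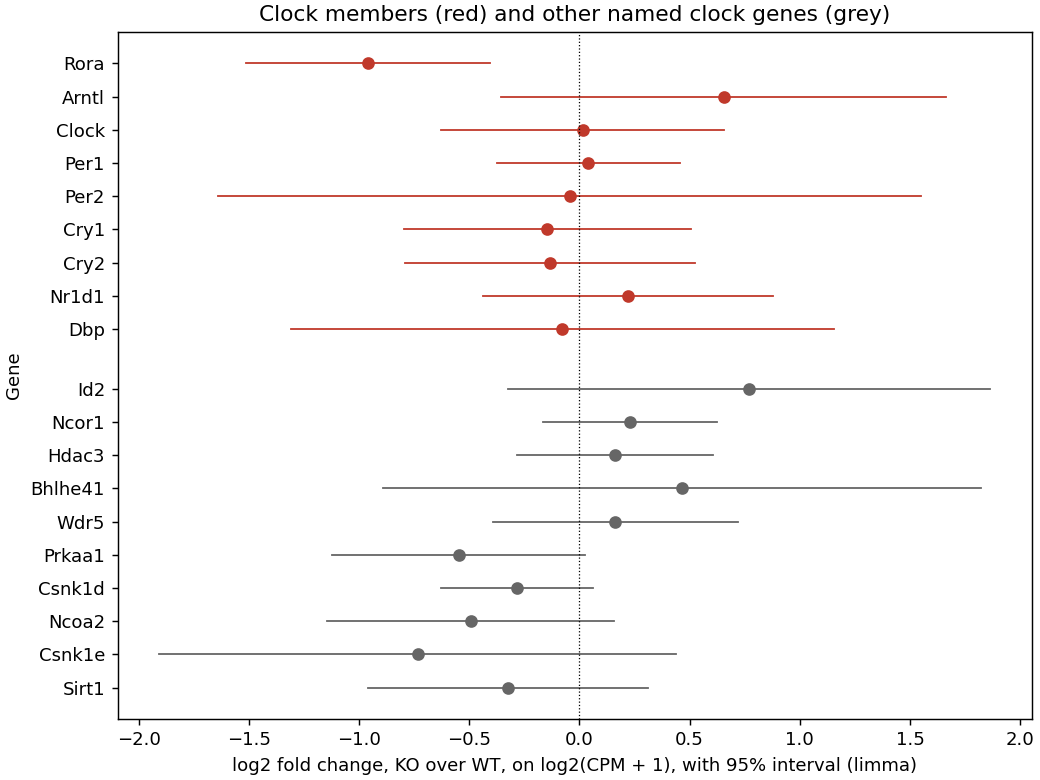
Log2 fold change, KO over WT, on log2(CPM + 1) with 95% intervals from limma, for the 9 members (red) and 10 other clock genes (grey). Rora at -0.96 is the 1 gene of these whose interval does not reach 0, and the intervals of Per2 and Dbp are among the widest.

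The genes whose pattern over the 4 libraries was nearest to that of Rora were Idh2, Upk3bl, Ddah1, Pdgfa and Fbxo4. Likeness was the Euclidean distance of centred log2(CPM + 1) values among 11620 genes that averaged 5 CPM or more, and these 5 had distances of 0.039 to 0.133. Idh2, a mitochondrial isocitrate dehydrogenase, stood at 5.58 and 5.63 CPM in KO, against 11.3 and 12.2 CPM in WT. Ddah1, which breaks down methylated arginine, stood at 9.35 and 9.97 CPM in KO, against 18.8 and 18.3 CPM in WT. As at Rora, the KO values were close to each other on few reads (4.2 and 3.4 for Idh2). That closeness follows from the rule that chose these genes, so it is no separate result.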

How the data were processed

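An Ion Torrent total RNA kit was used for the libraries, per the labels' protocols. STAR and Partek on mm39 are named in the submitters' processing notes, without versions or settings. What the authors deposited is CPM for each RefSeq transcript, with each of 4 columns summing to 1000000. Starts in the tables count from 0 and are printed counting from 1. Transcript rows were summed per gene symbol. The smallest common step between values was taken as 1 read. Only 47.4% to 48.1% of genes in KO and 23.0% to 26.5% in WT then came out whole (within 0.02 reads). Counts were thus not recovered, and no count test was used for the calls as reported. The exact intervals on reads took the estimated reads of each genotype, rounded to whole numbers, as counts. They are therefore approximate and cover counting error only.

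Genes reaching 1 CPM in 2 or more libraries were compared, KO over WT, with limma 3.58.1 (R 4.3.3). The scale was log2(CPM + 1), which understates changes of low genes, the variance prior followed the mean level, and p-values were adjusted by Benjamini-Hochberg over all genes. The fit was tested on simulated data with large planted changes and a small set spread between samples. That does not show its power for smaller changes or in these libraries. Tables were handled in Python 3.11.15 with pandas 2.3.3. Members, lists and rules were chosen with earlier results of these data known. Named genes were the 9 members, up to 5 other clock genes per direction with the smallest p and an average of 5 CPM or more, Tas1r3, and the 5 genes nearest to Rora. Per3, Nr1d2, Npas2 and Fbxl21 fall outside this rule and were chosen after their values were seen. Alternatives covered the pseudocount, the filter, scaling, the mean trend, precision weights, the replicate number as a block and each sample left out. The fit of single transcripts and the check of their shares were added after the data were seen.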

Additional observations from a re-analysis of the deposited data

How the results depend on the processing

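Depth limits most members, with Per2 and Dbp at or below the floor of 3 reads in KO sample 1. Of the 9 members, 0 were called higher under any of 13 alternatives (12 for Dbp, which did not reach the 5 CPM filter) and 1 (Rora) was called lower in 2 of them, so leaving out a sample gave 0 to 1 lower calls. Over all genes the counts moved more. They were 0 higher and 0 lower with a pseudocount of 0.1 and without a mean trend. They were 4 higher and 1 lower with precision weights, and 6 higher and 17 lower with the replicate number as a block. Leaving out a sample gave 1 (without WT sample 1) to 434 (without KO sample 1) higher genes and 3 to 1029 lower genes, with 146 and 510 without KO sample 2. Under the block 0 members passed. The deviations of same-numbered samples from their genotype means had a Pearson r of -0.0054 over 17744 genes, so the numbers are not shown to pair the samples. Other clock genes were called lower 0 to 5 times when a sample was left out. All 5 calls (of 40 genes) came without KO sample 1, Ncoa2 and Csnk1d among them, in a fit that called 5.89% of all genes lower.

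Directions of small differences turned. Per2 was 0.056 with a pseudocount of 5 and 0.078 after quantile normalization, and Dbp was 0.016 after quantile normalization. With a sample left out, the log2 fold changes ran from -0.15 to 0.18 for Clock, -0.13 to 0.21 for Per1, -1.11 to 1.02 for Per2, -0.44 to 0.15 for Cry1, -0.38 to 0.12 for Cry2, -0.018 to 0.46 for Nr1d1 and -0.47 to 0.31 for Dbp. They ran from -0.052 to 0.98 for Bhlhe41 and from -0.037 to 0.36 for Wdr5. Rora ran from -0.98 to -0.93 and Arntl from 0.41 to 0.90. The KO over WT ratio of Dbp ran from 0.661 to 1.29, and that of the activator to repressor level from 0.846 to 1.10. Without Rora the last ratio was 1.31, against 0.956 with it. The median of all genes was -0.05, and -0.05 after trimmed-mean scaling, -0.0034 after quantile normalization and 0.0020 with precision weights. The cause of these shifts was not tested.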
